A study of Sus scrofa with 10 samples.

Results

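The 10 genes described here code for the release, storage and reuptake of calcium in the sarcoplasmic reticulum of muscle fibres. They were taken by symbol from a list written with earlier results of these data known. They are ITPR1, RYR1, CACNA1S, TRDN, JSRP1, CASQ1, CASQ2, SRL, ATP2A2 and SLN. Of these, 8 were paired with one of the 25880 gene identifiers in the deposited table, and all 8 passed the minimum for testing, a mean of 50 normalised counts in both breeds. RYR1 and CASQ2 were not paired with an identifier and are not analysed here. RNA of the longissimus lumborum, the long back muscle of the loin, was sequenced from 5 Alentejano (AL) and 5 Bísaro (BI) pigs, a local breed of southern and one of northern Portugal. All 10 animals were purebred castrated males, reared free-range on commercial feed, and slaughtered near 150 kg, a weight that the labels ascribe to the carcass. Their age is not given in the sources used here. Each pig gave 1 library with no pooling, and no animal was treated, so that breed is the comparison made.

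A muscle fibre contracts when calcium leaves the sarcoplasmic reticulum and relaxes when it is pumped back. The voltage sensor in the T-tubule membrane, with CACNA1S as its pore-forming subunit, opens the release channel RYR1, to which triadin (TRDN) and JSRP1 are tied at the triad. Inside the reticulum calsequestrins (CASQ1 in all fibres, CASQ2 in slow fibres and heart) and sarcalumenin (SRL) bind calcium, and the pumps ATP2A1 of fast fibres and ATP2A2 of slow fibres return it, with sarcolipin (SLN) as a small inhibitor of the pumps. ITPR1 is a second kind of release channel, opened by inositol trisphosphate.

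The values are reads per gene divided by the size factor of the pig, called normalised counts below, and they could be turned back into whole reads. Between 2298045 (AL44) and 3343194 (BI25) reads were counted on genes per pig, and the 10 highest genes took from 48.5% of them in AL44 to 60.3% in BI34. AL44 and BI34 thus lie at both ends of that share, and results that rest on them are given with and without them. Markers of skeletal muscle were plentiful, with a summed count of 9454 to 25145 in AL and of 18456 to 34792 in BI for the 5 of 10 listed markers in the table, ACTA1 among them. Markers of endothelium (3.24 to 16.7 in AL, 2.20 to 9.88 in BI), adipocytes (6.47 to 17.0 and 13.2 to 28.4) and nerve (5.39 to 12.5 and 3.01 to 16.5) stayed low. Smooth muscle markers summed to 24.9 to 51.8 in AL and 22.03 to 40.1 in BI, fibroblast markers to 13.2 to 112 and 19.0 to 43.3, and immune markers to 21.3 to 60.4 and 6.61 to 32.9, with CD3E at 0 reads. Of the heart markers, NPPB had 0 reads and TNNT2 was counted at 1.78 or less in every pig. MYH6 carried most of a sum of 654 to 1488 in AL and 285 to 715 in BI. Its log2 fold change, AL over BI, was 0.93 with an adjusted p of 0.299 in limma. Stranded libraries were made, and the strand setting of the counting is not given in the sources used here. ATP2A1, the main calcium pump of fast fibres, had a mean normalised count of 4718, against 337001 for RABEP2, which overlaps its end by 49 bases on the opposite strand. Likewise, the 12 mitochondrial protein genes of one strand summed to between 4116 and 15136 per pig, and ND6, the protein gene of the other strand, to between 24966 and 81216. How far the counts of the calcium genes hold reads of their own transcripts was not tested, and genes on the opposite strand are therefore given for each of them.

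The 250 bases before the annotated start of 5 of the genes are printed here, those of ITPR1, ATP2A2 and TRDN, which had the log2 fold changes of largest size among the 8 although none passed the adjusted threshold, and of CASQ1 and SRL, which bind calcium in the store. They were read from the RefSeq Sscrofa11.1 genome, 5′ to 3′ on the strand of the gene. They lie at chr13:61067881-61068130 (plus strand) for ITPR1, chr1:39180294-39180543 (plus strand) for TRDN, chr4:90288991-90289240 (minus strand) for CASQ1, chr3:38073129-38073378 (plus strand) for SRL and chr14:31674409-31674658 (plus strand) for ATP2A2. Capitals mark the E-box CANNTG, the motif bound by the myogenic factors, which reads the same on both strands.
ITPR1: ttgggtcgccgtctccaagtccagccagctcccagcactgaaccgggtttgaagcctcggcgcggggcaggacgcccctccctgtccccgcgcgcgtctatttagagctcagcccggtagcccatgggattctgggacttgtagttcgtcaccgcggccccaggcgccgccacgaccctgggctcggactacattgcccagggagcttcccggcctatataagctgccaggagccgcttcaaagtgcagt
TRDN: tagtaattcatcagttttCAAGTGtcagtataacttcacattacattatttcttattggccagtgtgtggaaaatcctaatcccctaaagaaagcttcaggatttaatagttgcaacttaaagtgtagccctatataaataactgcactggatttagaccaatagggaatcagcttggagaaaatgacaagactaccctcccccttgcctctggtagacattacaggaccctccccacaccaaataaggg
CASQ1: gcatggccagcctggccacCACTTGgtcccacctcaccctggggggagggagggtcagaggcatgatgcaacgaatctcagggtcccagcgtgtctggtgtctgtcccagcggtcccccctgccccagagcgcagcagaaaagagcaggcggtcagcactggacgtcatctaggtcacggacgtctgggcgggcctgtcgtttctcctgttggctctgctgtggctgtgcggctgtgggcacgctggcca
SRL: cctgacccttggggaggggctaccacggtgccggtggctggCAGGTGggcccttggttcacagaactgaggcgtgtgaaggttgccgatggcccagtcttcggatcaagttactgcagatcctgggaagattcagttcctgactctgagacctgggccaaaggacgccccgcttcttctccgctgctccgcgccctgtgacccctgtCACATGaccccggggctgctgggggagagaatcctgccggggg
ATP2A2: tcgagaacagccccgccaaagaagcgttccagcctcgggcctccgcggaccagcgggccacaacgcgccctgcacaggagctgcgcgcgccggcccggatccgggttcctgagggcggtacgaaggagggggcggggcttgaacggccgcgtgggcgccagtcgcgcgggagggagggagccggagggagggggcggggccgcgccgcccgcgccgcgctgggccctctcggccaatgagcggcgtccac
The ATP2A2 window was 77.2% G and C and the ITPR1 window 65.2%, while that of TRDN was 39.6%, against a median of 57.6% over 19498 windows of this length before protein-coding genes. No E-box was found in the windows of ITPR1, ATP2A2 and JSRP1, 1 each in those of CASQ1 and TRDN, 2 in that of SRL and 3 in that of SLN. In all, 4 of the 7 windows examined had one, against 61.9% of all windows. GC boxes (GGGCGG on either strand) were found in 3 of the 7, with 4 of them in the ATP2A2 window, against 46% of all windows. A CArG box, the motif of serum response factor, was found in the TRDN window alone, beginning 11 bases before the start, against 1.31% of all windows, and a MEF2 motif in none of the 7, against 2.55%. These matches describe letters in the windows, which may miss the start used in pig muscle.

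Between the breeds, ITPR1 and ATP2A2 had the highest counts relative to BI, at 1.92 and 1.74 times the BI level, and TRDN and CACNA1S had the lowest. By limma, with Benjamini-Hochberg adjustment over 1513 genes, 0 of the 8 reached an adjusted p under 0.05, as did 0% of all genes. An unadjusted p under 0.05 was found for 2 of the 8 (7.4% of all genes tested), 2 of them higher in AL (3.5% of all genes) and 0 higher in BI (3.9%). Under edgeR, DESeq2 (where 1.26% of all genes passed) and limma-voom, the adjusted p was under 0.05 for 0 of the 8. The unadjusted p was under it for the same 2, ITPR1 and ATP2A2. The smallest of these adjusted p was 0.0566, for ITPR1 under DESeq2. The paper lists ITPR1 in its enrichment analysis, whose input was the genes called by its own DESeq2 comparison. Its set of genes after the minimum count differs from the one tested here. The log2 fold change, AL over BI, was above 0 in 3 of the 8 and below 0 in 5, with a median of -0.07, against -0.05 over all genes tested, of which 42% were above 0. Its size was above 0.5 in 4 of the 8, against 7.93% of all genes tested, and their median size was 0.36 against 0.16. The 8 genes were chosen with earlier results of these data known, so these values describe the chosen genes only. Within a breed their median residual SD was 0.44 on the log2 scale, against 0.31 over all genes tested, and ranged from 0.10 for JSRP1 and 0.21 for CASQ1 to 0.59 for CACNA1S and 0.71 for TRDN. In none of the 8 did the breeds fail to overlap, against 1.45% of all genes. In whole muscle, fewer fibres of a type and less RNA per fibre cannot be told apart.

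**Figure D1:**
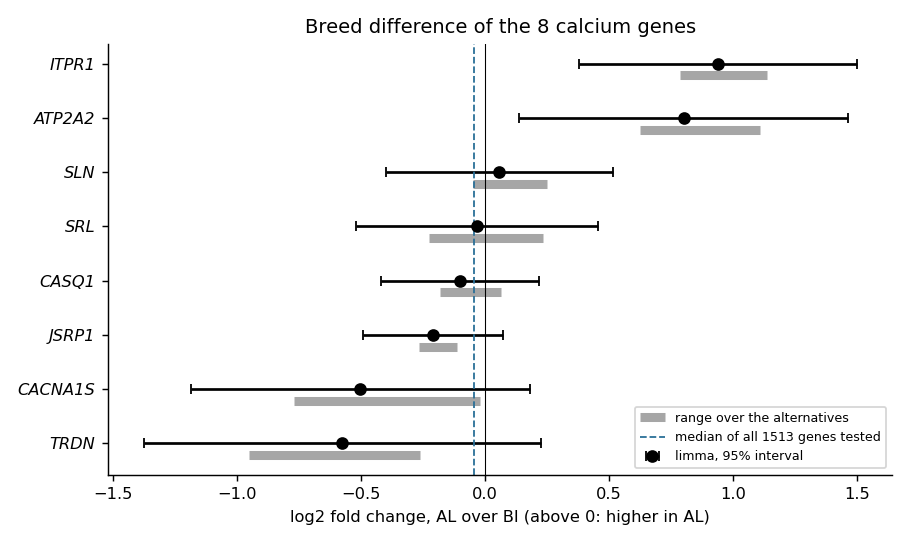
Log2 fold change of each of the 8 genes, AL over BI (points, with 95% intervals from limma), with the range over the alternative settings as grey bars and the median of all 1513 genes tested as a dashed line. The intervals of ITPR1 (0.38 to 1.498) and ATP2A2 (0.14 to 1.46) lie above 0 and those of the other 6 genes include it.

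Of the release channels, ITPR1 (ENSSSCG00000023437, chr13:61068131-61398918 of Sscrofa11.1, plus strand) was counted at 726, 426, 461, 295 and 587 in the AL pigs (AL44, AL46, AL49, AL52 and AL63, the order used throughout). In the BI pigs (BI25, BI34, BI36, BI37 and BI42) it was counted at 214, 429.6, 213, 251 and 193. AL44, AL49 and AL63 lay above every BI pig, and all BI pigs but BI34 lay below every AL pig. On average this came to 499 ± 164 in AL and 260.1 ± 96.96 in BI (SD, n = 5 each), a log2 fold change of 0.94 ± 0.26 (SE) with an adjusted p of 0.299 in limma. The exact two-sided permutation test gave p = 0.0238, with q = 0.530 over all genes tested. By its limma p, ITPR1 ranked 15 of 1513 genes. BI34 was the pig that brought the breeds together, and without AL44 and BI34 the log2 fold change was 0.98 with an adjusted p of 0.0268 in limma, in a comparison where 2.58% of all genes passed. With no minimum count ITPR1 also passed, with an adjusted p of 0.0368 in limma, as did 0.272% of 14681 genes. Its counts and its log2 fold change of 0.94 were the same there, and only the set of genes fitted differed. The unadjusted limma p was 8.77e-05 in that setting, against 0.00317 in the main one. A lncRNA, LOC106505661, overlaps ITPR1 by 30517 bases on the opposite strand and is not analysed here. ITPR3, the related channel that the table also holds at a high level, averaged 671 ± 103 in AL and 667 ± 126 in BI (SD, n = 5 each), a log2 fold change of 0.01.

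The voltage sensor CACNA1S (ENSSSCG00000024784, chr10:23503701-23567797, minus strand) was counted at 65.1, 176, 128, 177 and 188 in AL and at 165, 358, 134, 168 and 212 in BI. AL44 was the lowest and BI34 the highest of the 10 pigs, 2 AL pigs lay below every BI pig, and the other AL pigs lay within the BI range. Breed means were 147 ± 51.1 for AL and 208 ± 88.5 for BI (SD, n = 5 each), a log2 fold change of -0.50 ± 0.32 (SE) with an adjusted p of 0.747 in limma. The 95% interval of the difference ran from -1.19 to 0.18. Without AL44 and BI34 the log2 fold change was -0.02, so that its size rested on this pair of pigs. No gene on the opposite strand lies within 5 kb.

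Triadin and JSRP1, both anchored beside the release channel, were a contrast in how much they varied. TRDN (ENSSSCG00000027613, chr1:39180544-39567245, plus strand) was counted at 226, 170.1, 137, 261 and 64.5 in AL and at 289, 118, 247, 211 and 371 in BI. AL63 was the lowest and BI42 the highest, 5.75 times apart, and the breeds overlapped widely. AL averaged 172 ± 76.7 and BI 247 ± 93.6 (SD, n = 5 each), a log2 fold change of -0.58 ± 0.37 (SE) with an adjusted p of 0.759 in limma. Without AL63 the log2 fold change was -0.26, and without AL44 and BI34 it was -0.95 with an adjusted p of 0.172. A lncRNA, LOC110260190, overlaps TRDN by 56237 bases on the opposite strand and is not analysed here.

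JSRP1 (ENSSSCG00000031899, chr2:76418508-76422405, minus strand) was counted at 139.7, 134, 125, 125 and 131 in AL and at 130.1, 161, 153, 163 and 153 in BI. All BI pigs but BI25 lay above every AL pig. The AL mean was 131 ± 6.12 and the BI mean 152 ± 13.1 (SD, n = 5 each), a log2 fold change of -0.21 ± 0.13 (SE) with an adjusted p of 0.742 in limma. By the exact two-sided permutation test p was 0.0317, with q = 0.534 over all genes tested, while the unadjusted limma p was 0.132. The residual SD of JSRP1, 0.10 on the log2 scale, stood at percentile 0.463 of the genes tested, and that of TRDN, 0.71, at percentile 95.5. For JSRP1 the spread was 4.67% of the mean in AL, where counting error alone gives 8.67% at 116 to 148 reads per pig, and 8.61% in BI, where it gives 7.96% at 145 to 178 reads. AMH, on the opposite strand 192 bases away, had 0 reads, and SF3A2, 3606 bases away, is not analysed here.

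**Figure D2:**
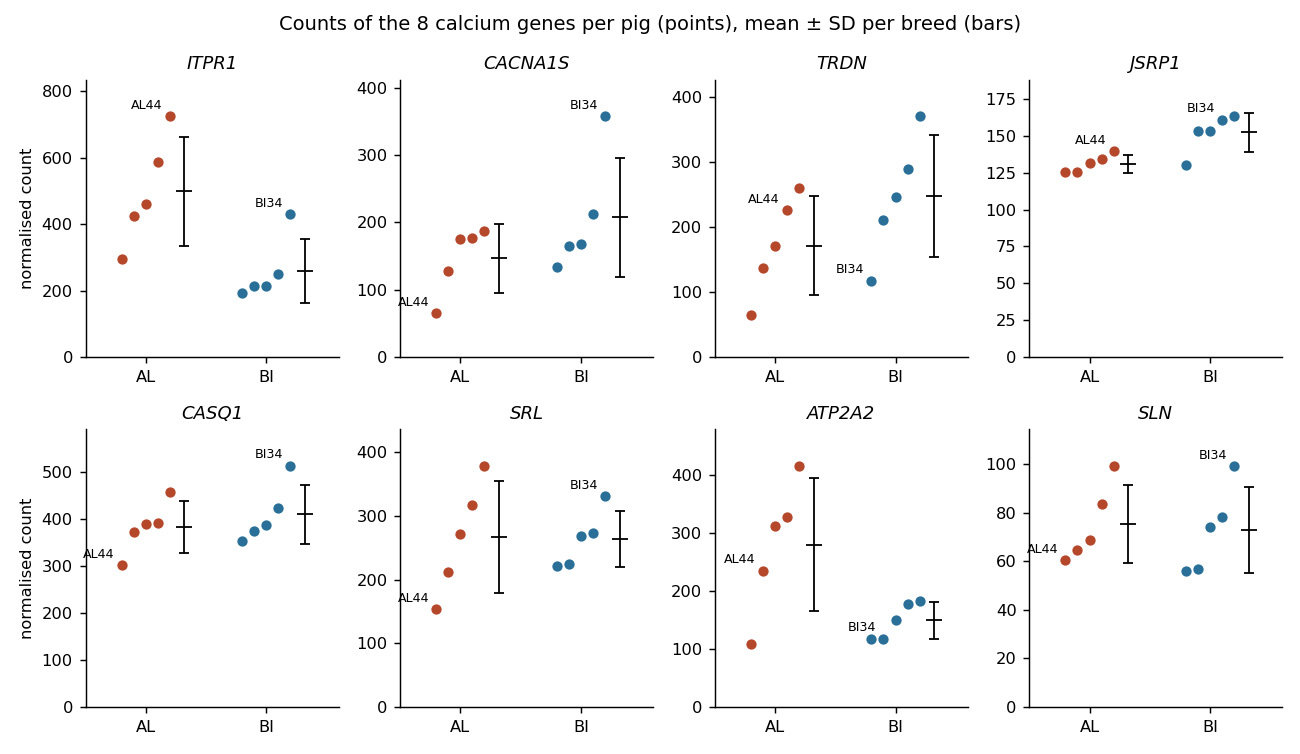
Normalised counts of the 8 genes in the 5 AL and the 5 BI pigs (points, ordered by value within a breed) with the mean ± SD of each breed (bars); AL44 and BI34 are named. The breeds overlap in every panel, the 4 highest BI pigs for JSRP1 lie above all AL pigs, and AL44 is the highest pig for ITPR1 and the lowest for CACNA1S, CASQ1 and SRL.

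The calcium-binding genes of the store had close means in the breeds. CASQ1 (ENSSSCG00000006390, chr4:90276752-90288990, minus strand) was counted at 301, 456, 389, 372 and 390.2 in AL and at 375, 513, 387, 353 and 423 in BI. AL44 was again the lowest and BI34 the highest pig, and the other 8 ran from 353 to 456. On average this came to 382 ± 55.5 in AL and 410.1 ± 62.98 in BI (SD, n = 5 each), a log2 fold change of -0.10 ± 0.15 (SE) with an adjusted p of 0.892 in limma. Its 95% interval, -0.42 to 0.22, was the second narrowest of the 8 genes, and without AL44 and BI34 the log2 fold change turned to 0.06. SRL (ENSSSCG00000007949, chr3:38073379-38111936, plus strand) was counted at 154, 317, 213, 272 and 379 in AL and at 273, 330.4, 222, 269 and 224 in BI. The lowest pig, AL44, and the highest, AL63, were both AL, and all BI pigs lay between them. Breed means were 267 ± 87.8 for AL and 264 ± 44.5 for BI (SD, n = 5 each), and the log2 fold change of -0.03 (95% interval -0.52 to 0.45, adjusted p 0.971 in limma) turned above 0 under several alternatives. Neither gene has another on the opposite strand within 5 kb.

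Of the reuptake genes, the slow fibre pump ATP2A2 (ENSSSCG00000034386, chr14:31674659-31744981, plus strand) was counted at 235, 109, 312, 328 and 416 in AL and at 177, 118, 117, 183 and 150.0 in BI. All AL pigs but AL46 lay above every BI pig, and AL46 was the lowest of the 10. AL averaged 280.0 ± 115 and BI 149 ± 31.4 (SD, n = 5 each), a log2 fold change of 0.80 ± 0.31 (SE) with an adjusted p of 0.501 in limma. The exact two-sided permutation test gave p = 0.0714, with q = 0.678 over all genes tested. With each pig left out in turn, the log2 fold change ran from 0.62 without AL63 to 1.11 without AL46. The limma p of 0.0218 rose above 0.05 without AL49, AL52, AL63 or BI36 (0.0509 to 0.0602), and to 0.0523 without AL44 and BI34 together. ANAPC7 overlaps ATP2A2 by 253 bases on the opposite strand and was counted at 5.34 or less in every pig. Markers of slow fibres, 6 of 8 in the table and none at 0, summed to 3095 to 4588 in AL and 2777 to 3662 in BI, and those of fast fibres, 7 of 8 in the table and none at 0, to 12484 to 21126 and 18829.7 to 27538. MYH7B, with a mean of 2751 and a log2 fold change of 0.15, made up most of the slow fibre sum. The log2 fold changes of TNNT1, TNNI1 and TNNC1 were 0.73, 0.68 and 0.78, with adjusted p of 0.336, 0.489 and 0.381 in limma (unadjusted 0.00578, 0.0197 and 0.0125). The slow fibre troponins TNNT1, TNNI1 and TNNC1, measured beside it, summed to 755, 573, 551, 441 and 899 in AL and to 528, 325, 292, 319 and 464 in BI. Over the 10 pigs, ATP2A2 and this sum had Pearson's r = 0.60 (permutation p = 0.0689, q = 0.232) and Spearman's rho = 0.41 (permutation p = 0.247, q = 0.719), and r was 0.26 without AL63 and BI36. This r pools the breeds, which differed in the troponin sum (mean 644 in AL and 386 in BI), and the relation within a breed was not tested. The share of slow fibres in the ATP2A2 difference was not tested.

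Set against the fast fibre pump in the same pig, which takes out the size factor, the ATP2A2 count was 10.2%, 2.01%, 7.07%, 5.63% and 6.05% of the ATP2A1 count in AL. In BI it was 4.27%, 1.605%, 3.80%, 4.73% and 3.86%. All AL pigs but AL46 lay above every BI pig. The mean log2 ratio was -4.19 ± 0.87 in AL and -4.86 ± 0.62 in BI (SD, n = 5 each), a difference of 0.67 with p = 0.206 by the exact two-sided permutation test, whose smallest possible p is 0.00794. By the same exact test, the difference was 1.03 without AL46 (p = 0.0159), 0.45 without AL44 (p = 0.373), 0.40 without BI34 (p = 0.429) and 0.17 without AL44 and BI34 together (p = 0.743), so its size rested on single pigs. How many reads of RABEP2 the ATP2A1 count in this ratio holds was not tested.

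Sarcolipin (SLN, ENSSSCG00000029651, chr9:36232955-36242405, minus strand), which binds the pumps, had the fewest reads of the 8 genes, 54 to 107 per pig. It was counted at 60.4, 99.5, 64.7, 83.6 and 69.0 in AL and at 56.0, 99.1, 74.1, 78.2 and 57.0 in BI, so that the breeds covered nearly the same range. The AL mean was 75.4 ± 16.0 and the BI mean 72.9 ± 17.7 (SD, n = 5 each), a log2 fold change of 0.06 ± 0.21 (SE) with an adjusted p of 0.957 in limma. The 95% interval ran from -0.40 to 0.52, and the sign turned without AL46, BI25 or BI42. Without AL44 and BI34 the log2 fold change was 0.25. No gene on the opposite strand lies within 5 kb.

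Per kilobase of exon, which allows for gene length only, CASQ1 stood highest with a mean normalised count of 139 per kb over the 10 pigs. JSRP1 followed with 102 per kb and SLN with 60.3 per kb. TRDN (37.9 per kb), ITPR1 (37.1), CACNA1S (30.8), ATP2A2 (28.6) and SRL (23.2) formed the lower end of the order. CASQ1 was above JSRP1 in 10 of 10 pigs. JSRP1 was above SLN in 10 of 10, and these were the only neighbours in the order whose ranges over the pigs did not overlap. SLN was above TRDN in 8 of 10, while TRDN was above ITPR1 in 5 of 10 and ITPR1 above CACNA1S in 4 of 10. CACNA1S was above ATP2A2 in 6 of 10, as was ATP2A2 above SRL, so that no order among the lowest 5 held across the animals. Exon lengths are those of RefSeq, whereas the reads were counted on Ensembl models. How far each count holds reads of the gene's own transcripts was not tested, so the order is one of counts.

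Between the pigs, CASQ1, CACNA1S and SRL tended to move together and ITPR1 and TRDN to move apart, but of the 28 pairs of genes none had a q under 0.05 and 4 had an unadjusted p under it. CASQ1 and CACNA1S had r = 0.86 (permutation p = 0.00548, q = 0.153) and rho = 0.66 (permutation p = 0.0456, q = 0.425). Without AL44 and BI34, which were lowest and highest for both, r was 0.28, so the relation rests on these pigs. CACNA1S and SRL had r = 0.78 (permutation p = 0.0119, q = 0.167) and rho = 0.73 (permutation p = 0.0209, q = 0.293), with r = 0.47 without the same pigs. CASQ1 and SRL had r = 0.64 (permutation p = 0.0485, q = 0.326) and rho = 0.55 (permutation p = 0.105, q = 0.655), with r = 0.11 without them. ITPR1 and TRDN had r = -0.69 (permutation p = 0.0243, q = 0.227) and rho = -0.73 (permutation p = 0.0199, q = 0.293). Here r was -0.90 without AL44 and BI42, the pigs farthest from the median of ITPR1, and -0.62 for deviations from the breed means. The pump ATP2A2 and the channel ITPR1, both higher on average in AL, had r = 0.42 (permutation p = 0.225, q = 0.573) and rho = 0.49 (permutation p = 0.155, q = 0.655) over the 10 pigs. For their deviations from the breed means r was -0.08.

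**Figure D3:**
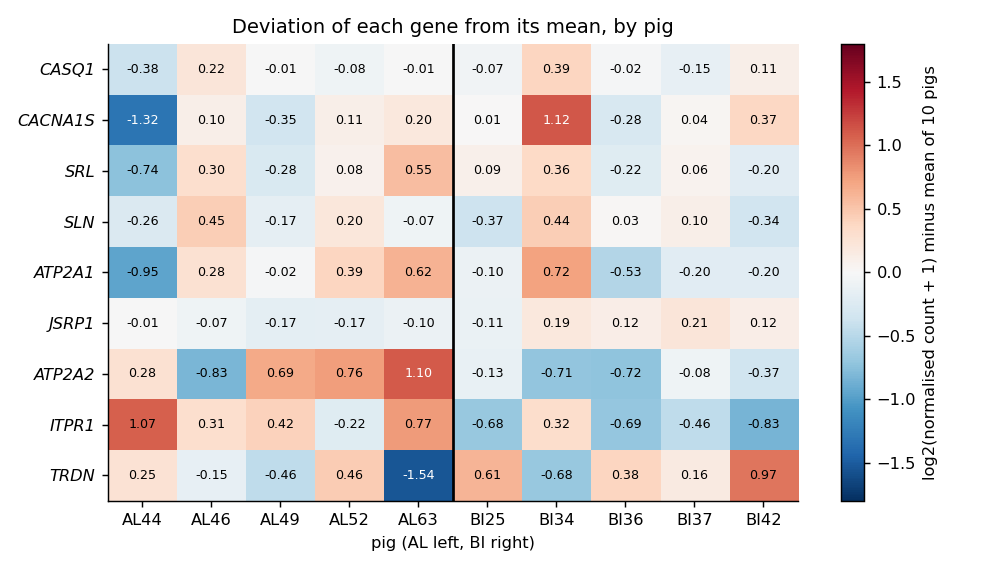
Deviation of each gene in each pig from its mean over the 10 pigs, on the scale of log2(normalised count + 1), with red above and blue below the mean and AL pigs left of the line. ATP2A1 is shown beside the 8 genes. The CASQ1, CACNA1S and SRL cells are lowest in AL44, and AL63 has the highest ATP2A2 and SRL and the lowest TRDN.

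Single pigs took up the extremes of several genes. AL44 had the highest ITPR1 and the lowest CASQ1, CACNA1S and SRL of the 10. AL63 had the highest ATP2A2 and SRL and the lowest TRDN, and AL46 had the highest SLN and the lowest ATP2A2. BI34 had the highest CASQ1 and CACNA1S, and 6 of its 8 values lay above the mean of the 10 pigs. BI42 had the highest TRDN and the lowest ITPR1.

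The genes were then set beside 4 measures taken per pig. These included the ATP2A1 count as a percentage of the RABEP2 count and the mitochondrial genes as a percentage of ND6. The others were the share of reads on the 10 highest genes and the summed slow troponins. ATP2A1 is itself a calcium pump of the reticulum, and the troponins are fibre genes. Whether relations to these measures are technical was not tested. Of the 32 relations, 1 had a q under 0.05. SRL rose with the ATP2A1 percentage (1.08% to 1.68% in AL, 1.12% to 1.499% in BI), with r = 0.91 (permutation p = 2.30e-04, q = 0.00736) and rho = 0.96 (permutation p = 9.00e-05, q = 0.00288). Without AL46 and AL63, r was 0.88. CACNA1S had r = 0.65 with the same percentage (permutation p = 0.0378, q = 0.184; rho = 0.71, permutation p = 0.0263, q = 0.390) and r = 0.84 without those pigs. With the share of the 10 highest genes it had r = 0.90 (permutation p = 0.00618, q = 0.0989; rho = 0.62, permutation p = 0.0587, q = 0.390) but r = 0.14 without AL44 and BI34. CASQ1 had r = 0.73 with that share (permutation p = 0.0254, q = 0.184; rho = 0.32, permutation p = 0.369, q = 0.844), which was -0.50 without AL44 and BI34. ITPR1 and ATP2A2, with r = 0.19 (permutation p = 0.584, q = 0.747) and r = 0.10 (permutation p = 0.777, q = 0.843), showed no detectable relation to the ATP2A1 percentage. ITPR1 had r = 0.66 with the summed slow troponins (permutation p = 0.0402, q = 0.184; rho = 0.67, permutation p = 0.0386, q = 0.390), and 0.49 without AL63 and BI36. JSRP1 had r = -0.67 with that sum (permutation p = 0.0393, q = 0.184; rho = -0.55, permutation p = 0.104, q = 0.458), and -0.64 without them. Both r pool the breeds, which differed in the troponin sum (mean 644 in AL and 386 in BI). Relations to the troponin sum within a breed were not tested. In fits chosen after seeing the data, the ATP2A1 to RABEP2 ratio was set beside breed as a covariate. CACNA1S then had a log2 fold change of -0.77 (adjusted p of 0.122 and unadjusted of 0.00103 in limma) in place of -0.50, SRL -0.23 in place of -0.03, TRDN -0.39 in place of -0.58, and ITPR1 (0.94) and ATP2A2 (0.83) stayed close to their values without it. With the mitochondrial percentage as covariate CACNA1S stood at -0.34, ITPR1 at 0.90 and ATP2A2 at 0.84, and 0 of the 1513 genes tested passed the adjusted threshold in limma with either covariate. The part of the other measures in the breed differences was not tested.

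**Figure D4:**
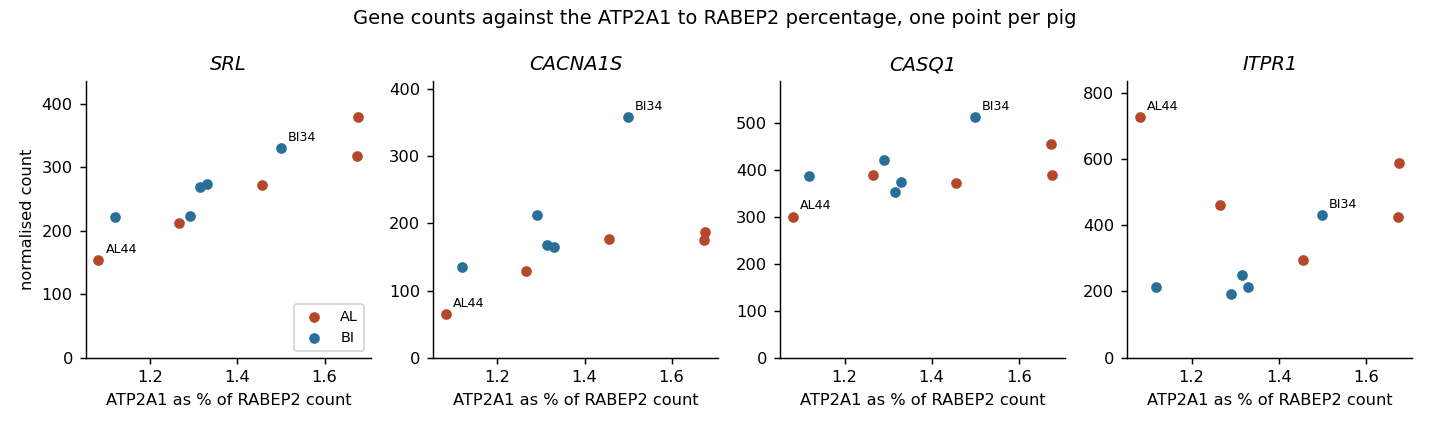
Normalised counts of SRL, CACNA1S, CASQ1 and ITPR1 (vertical axes) against the ATP2A1 count as a percentage of the RABEP2 count of the same pig (horizontal axes), 1 point per pig. SRL rises along the axis in both breeds (r = 0.91 over 10 pigs), and ITPR1 does not (r = 0.19).

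The genes whose log2 counts followed each member most closely over the 10 pigs were picked by Pearson's r among all genes tested, as a description. Of the 3 nearest to each member, those with a symbol are named. For CACNA1S they were ACTA1, the skeletal muscle actin (r = 0.96), and TESK1 (0.93), and for SRL they were CKM, the muscle creatine kinase (r = 0.96), RILPL1 (0.96) and EPN1 (0.95). CASQ1 was followed by MACROD1 (r = 0.93) and by SYPL2 (r = 0.92), a protein of the triad. ATP2A2 was followed by TIPIN (r = 0.92), SLC25A26 (0.89) and ASB14 (0.87). ITPR1 was followed by FEZ2 (r = 0.88) and THAP7 (0.85), and TRDN by REV1 (r = 0.94) and GRAMD1B (0.93). JSRP1 and SLN had the least close neighbours, ANKRD13B (r = 0.85), TBX6 (0.82) and CERS1 (0.77) for JSRP1 and CD151 (r = 0.84) and POLD2 (0.79) for SLN.

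Among 78 genes of calcium handling in 10 written lists, which include the 10 above, 66 were paired with an identifier and 19 were tested. By limma, 0 of the 19 passed the adjusted threshold. At an unadjusted p under 0.05, ITPR1 and ATP2A2 were higher in AL and CALM3, one of the calmodulin genes, was higher in BI. The log2 fold changes were above 0 in 10 and below 0 in 9, with a median of 0.01. CALM3 averaged 61.0 ± 12.5 in AL and 88.4 ± 17.6 in BI (SD, n = 5 each), a log2 fold change of -0.53 with an adjusted p of 0.501 in limma. In the list of release channel regulators HOMER3 stood at the other end, at 0.16, and DDX49, on the opposite strand 510 bases away, had a mean normalised count of 2549.

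The triad and T-tubule list had 6 genes tested, from TRDN at -0.58 to the membrane repair gene TRIM72 at 0.24, while JPH1, which joins the membranes of the triad, and BIN1, which shapes the T-tubule, both stood at 0.02. Of the 3 storage genes tested, HRC, a calcium-binding protein of the reticulum, stood highest at 0.20 and CASQ1 lowest at -0.10. Of the 3 reuptake genes tested, SLN stood lowest at 0.06 and ATP2A2 highest, with ATP2A1 at 0.13 (adjusted p 0.932 in limma). CAMK2A, at -0.19, was the only gene of the 10 cytosolic buffers and sensors that was tested. No gene of store-operated entry (5 genes), extrusion through the plasma membrane (7) or mitochondrial uptake (6) reached the minimum count. RYR2, the release channel of the heart, and SLC8A2, a sodium-calcium exchanger, had 0 reads in all 10 pigs, where the limit that a count of 0 allows (3 reads) was a normalised count of 2.47 to 3.39 per pig.

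**Figure D5:**
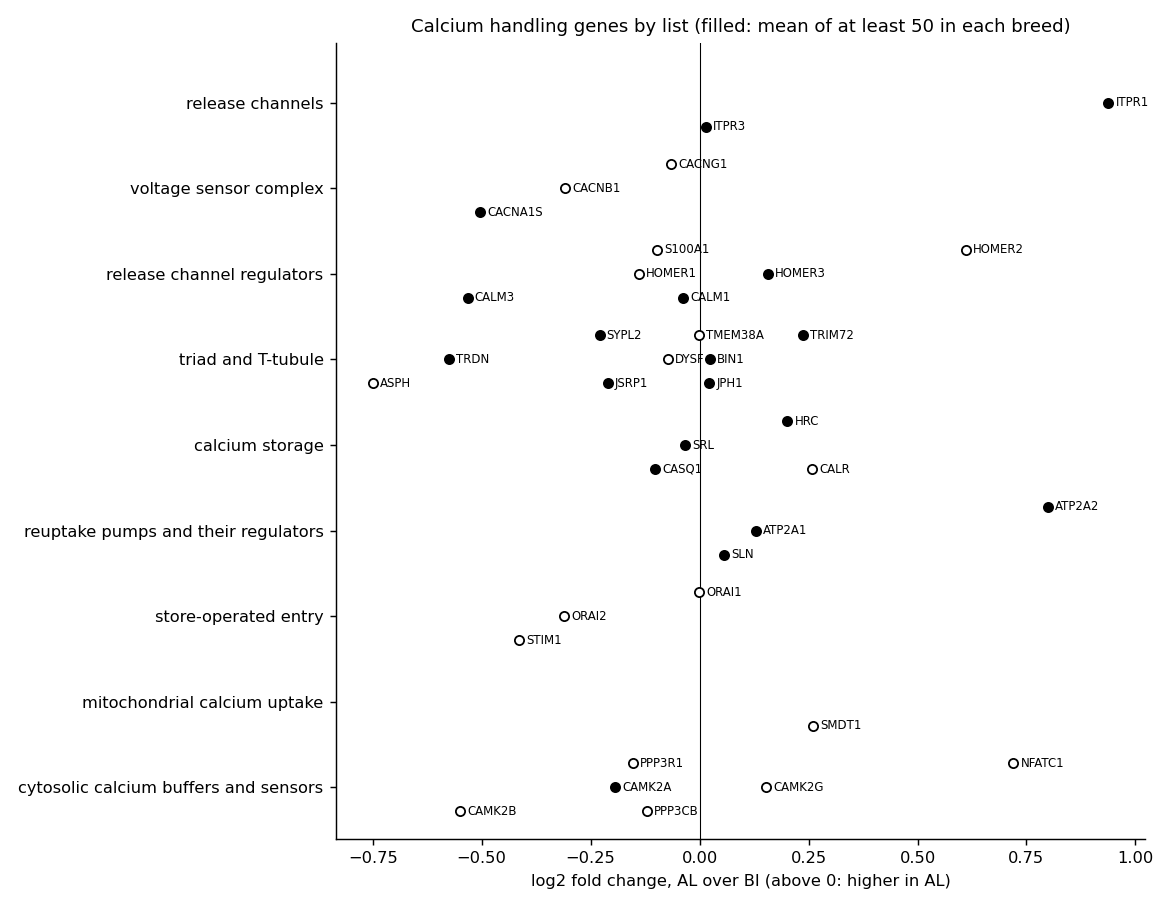
Log2 fold change, AL over BI, of the calcium handling genes by list, with filled points for the genes tested and open points for genes below the minimum mean whose counts sum to 50 or more over a breed. ITPR1 (0.94) and ATP2A2 (0.80) lie farthest to the right among the filled points, and TRDN (-0.58) and CALM3 (-0.53) farthest to the left.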

How the data were processed

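The study sequenced longissimus lumborum RNA of 5 AL and 5 BI pigs as stranded paired-end mRNA libraries. Adapters and low-quality bases were removed by the authors with Trim Galore 0.5.0. HISAT2 2.1.0 was the aligner, against Sscrofa11.1 with the genes of Ensembl release 94, SAMtools 1.9 converted the alignments, and HTSeq 0.11.1 did the counting per gene. The signal values the authors deposited are these counts over a DESeq2 size factor per pig, beside their mean over the pigs. The authors also deposited log2 fold changes, p-values and adjusted p-values, and scores (the standard error and the Wald statistic) of their own comparison, none of which was used. Pigs were grouped by the breed and animal number in the labels, no column was left unmapped, and the labels give no batch.

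Whole reads were recovered for 100% of the values (tolerance 0.01 reads). All p-values measure the spread between animals sequenced once, and pairs of pigs within a breed differed by more than counting noise (chi-square over its degrees of freedom 9.73 to 49.0 for 20 pairs). The main test was limma 3.58.1 (R 4.3.3) with an intensity trend on log2(normalised count + 1), which understates changes of low genes, over 1513 genes whose mean reached 50 in both breeds, with Benjamini-Hochberg adjustment and a threshold of 0.05. The mean is one reading of the study's minimum of 50 per group, and a sum of 50, an alternative, left 3315 genes (both breeds) or 3807 (one breed). Beside it stand exact two-sided permutation tests over all divisions of the 10 pigs, adjusted over the same genes, and correlations with 100000 permutations, adjusted within each family. Intervals of a count and the limit of 3 reads cover counting error only. Alternatives were pseudocounts of 0.1 and 10, other minimum counts and none, other scalings, edgeR 4.0.16, DESeq2 1.42.0 and limma-voom on recovered reads, thresholds of 0.01 and 0.1, and pigs left out. A pair of fits with the ATP2A1 to RABEP2 or the mitochondrial to ND6 ratio as covariate was chosen after seeing the data.

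The genes named are the 10 listed genes, ATP2A1, per calcium list the tested genes with the lowest and highest log2 fold change and those with 0 reads or past the threshold, and the 3 genes most like each member where they have a symbol. The slow troponins and MYH7B were markers. JPH1, BIN1 and DDX49 fall outside this rule, as do HOMER2, ASPH, CLVS1, CAMK2B and NFATC1 in the closing section. They were chosen after their values were seen. The members and lists were chosen with earlier results of these data known. Symbols were paired for 14857 of the 25880 identifiers. Positions, exon lengths and sequences come from RefSeq release 106 of Sscrofa11.1 by symbol, while the authors counted on Ensembl models. The sequence window of 1 tested gene is not reported here. Of 4 ratios planned, 3 needed RYR1 or CASQ2 and were not run. The tests were checked on simulated data. Figures were drawn with Python 3.11.15 and matplotlib 3.10.9.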

Additional observations from a re-analysis of the deposited data

Results flagged for a closer look

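Each of the 8 genes and the log2 ratio of ATP2A2 to ATP2A1 were examined in each breed, 18 groups of 5 pigs in all, for a pig set far apart from the other 4 by Dixon's ratio. Chance alone marks about 1 in 20 such groups. BI34 was marked for ITPR1, with a normalised count of 429.6 while the other BI pigs ran from 193 to 251. BI34 was also marked for the log2 ratio of ATP2A2 to ATP2A1, at -5.95 while the other BI pigs ran from -4.71 to -4.39. BI34 is the pig with the largest share of reads on the 10 highest genes (60.3%), and without it the log2 fold change of ITPR1, AL over BI, was 1.13 and the difference of the log2 ratio was 0.40.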

How the results depend on the processing

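The count of genes past the threshold over all genes was 0 in the main comparison and 112 at an unadjusted p under 0.05, in limma. It was 1 where the mean had to reach 50 in one breed only or over the 10 pigs, and 1 where the sum had to reach 50 in both breeds or in one only. It was 40 with no minimum count (26 higher in AL), 19 with DESeq2 (13 higher in AL), 39 without AL44 and BI34 together (13 higher in AL), and 0 to 1 with each pig left out in turn (1 without AL44 or BI37). The median log2 fold change of the 8 calcium genes was 0.15 without AL44 and BI34 and -0.19 with the ATP2A1 to RABEP2 ratio as covariate, and ran from -0.15 to 0.05 with each pig left out. ITPR1 passed the threshold with no minimum count (0.94, adjusted p 0.0368 in limma), where its own counts were unchanged. It also passed without AL44 and BI34 (0.98, adjusted p 0.0268 in limma). Over all its alternatives the adjusted p ran from 0.0268 to 0.520. Its log2 fold change was 0.79 to 1.13 with each pig left out. ATP2A2 kept its direction in 26 of 26 alternatives, with adjusted p from 0.128 (DESeq2) to 0.863, but its unadjusted p rose above 0.05 without AL49, AL52, AL63 or BI36 and without AL44 and BI34 together. TRDN, CACNA1S and JSRP1 kept theirs in 26 of 26 as well, though CACNA1S was -0.02 and TRDN -0.95 without AL44 and BI34, and CACNA1S was -0.77 (adjusted p 0.122) with the ATP2A1 to RABEP2 ratio as covariate. CASQ1 turned to 0.064 without AL44 and BI34. SLN ran from -0.047 to 0.17 with each pig left out and was 0.25 without AL44 and BI34. With the ATP2A1 to RABEP2 ratio as covariate SLN was -0.032. SRL turned to 0.062 with total reads as the scale, 0.057 with edgeR and TMM, 0.018 with edgeR and DESeq2 size factors, 0.018 with DESeq2, 0.23 without AL44 and BI34 and 0.042 with the mitochondrial ratio as covariate, was -0.23 with the ATP2A1 to RABEP2 ratio as covariate, and ran from -0.18 to 0.15 with each pig left out. The log2 ratio of ATP2A2 to ATP2A1 differed by 0.40 to 1.03 with each pig left out. Its unadjusted p was under 0.05 only without AL46 (p = 0.0159 by the exact test). Without AL44 and BI34 the difference of the ratio was 0.17. The causes were not tested. Other scalings moved the median of all genes by at most 0.096. No paired analysis was possible because the animal numbers are not shared between the breeds. The ratios with RYR1 or CASQ2 were not run. Each of these genes had 54 to 769 reads per pig, and the intervals given with 5 pigs per breed bound what could be told.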

Other observations

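Below the minimum count, 18 other calcium handling genes were in the wider set of 3807 genes whose counts summed to 50 or more over a breed. None of the 37 calcium genes in that set had an adjusted p under 0.05 in limma, where 1 gene of the whole set did. HOMER2, a scaffold that binds calcium channels, was counted at 30.0 ± 9.03 in AL and 19.4 ± 6.64 in BI (SD, n = 5 each), with 2 AL pigs above every BI pig. NFATC1, a transcription factor activated by calcineurin, was counted at 22.9 ± 14.6 and 10.7 ± 1.95 (SD, n = 5 each), with 4 AL pigs above every BI pig. The remaining AL pig, at 3.78, was the lowest of the 10 for NFATC1. ASPH, whose products include junctin of the triad, was counted at 7.24 ± 2.63 in AL and 12.7 ± 3.61 in BI (SD, n = 5 each), and CAMK2B, a calmodulin-dependent kinase, at 13.9 ± 3.36 and 21.0 ± 6.10 (SD, n = 5 each). For both, 4 BI pigs lay above every AL pig. Log2 fold changes, AL over BI, were 0.61 for HOMER2, 0.72 for NFATC1, -0.75 for ASPH and -0.55 for CAMK2B. In the same order, the adjusted p was 0.517, 0.688, 0.541 and 0.564 in limma over the wider set. CLVS1 overlaps ASPH by 2527 bases on the opposite strand and had a mean normalised count of 41.3, against 9.98 for ASPH.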
